A study of Homo sapiens with 3 samples.

Results

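FAISL, also called VPS9D1-AS1 or MYU, is a long noncoding RNA (lncRNA) transcribed from 16q24.3 on the strand opposite to VPS9D1. In the deposited tables it was present as 3 of 334 lncRNA transcripts, MSTRG.12733.1, MSTRG.12733.2 and MSTRG.12734.1, which were taken by these identifiers and which all carried the database name NONHSAT144573.2. The RNA came from MDA-MB-231, an established, p53-mutant human triple negative breast cancer line, and all cells had been transfected with a plasmid for Flag-tagged FAK. One library was made from RNA pulled down with an anti-FLAG antibody (Flag-FAK), another from a pulldown with normal mouse IgG (the IgG library), and the last from 10% of the starting RNA (Input). As each condition had 1 library, no difference below has a test, an SD or a p-value, and the exact 95% intervals cover counting error only. The tagged kinase was supplied by a plasmid in a single line, and the levels of FAK, VPS9D1 and other protein-coding genes were not analysed here.

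Focal adhesion kinase (FAK, gene PTK2) is a tyrosine kinase that is recruited to integrin adhesions, where it autophosphorylates and scaffolds Src and the adaptor p130Cas. In RNA immunoprecipitation, RNA that stays with a protein through lysis is recovered on antibody beads and sequenced, and the IgG beads show how much RNA is carried along without the antigen. VPS9D1-AS1 is known as an antisense lncRNA that is raised in several tumor types, and it has been described as a MYC-responsive RNA that binds the RNA-binding protein HNRNPK.

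The start of the locus is shown because the assembled transcripts began within the RefSeq promoter window of VPS9D1-AS1. In GRCh38.p14 this window lies at chr16:89711606-89711905 on the plus strand and holds 250 bases before and 50 bases after the RefSeq start. Capitals mark the last 40 bases, from the common start of MSTRG.12733.1 and MSTRG.12733.2 onwards.
VPS9D1-AS1 window: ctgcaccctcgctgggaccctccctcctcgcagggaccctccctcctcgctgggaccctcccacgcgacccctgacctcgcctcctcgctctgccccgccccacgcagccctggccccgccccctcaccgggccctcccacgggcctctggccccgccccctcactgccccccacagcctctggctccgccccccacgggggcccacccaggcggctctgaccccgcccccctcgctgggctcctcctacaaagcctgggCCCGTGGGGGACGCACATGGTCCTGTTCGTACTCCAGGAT
The assembled start was 10 bases inside the RefSeq start. The window was 75.7% G or C, a share higher than in 91.7% of 35116 RefSeq promoter windows of this length, whose median was 58.7%. Searched on both strands, it held 5 matches to GGGCGG, the core of a GC box, and 5.14% of all windows held as many, while 45.0% held at least 1. It held no match to CACGTG, the canonical E-box (7.26% of windows), or to TATAAA (11.5% of windows). One of 29 designed FISH probes against FAISL was antisense to chr16:89711880-89711899 in this window, beginning 14 bases past the assembled start.
FISH probe 1: gagtacgaacaggaccatgt

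The study's other reagents against FAISL are shown because they define which RNA its knockdown and RT-qPCR read. Capitals in the first pair of lines mark 9 bases shared by the first siRNA and the sequence that FISH probe 12 pairs with.
siFAISL#1: CTTGGCATGgagcacctct
target of FISH probe 12: ccttcccgtagCTTGGCATG
siFAISL#2: gggatcgcctcacccatct
In the RT-qPCR primers and FISH probe 9, capitals mark 19 bases common to the antisense primer and the probe, so both lie on the same stretch of the RNA.
RT-qPCR sense primer: atgggtaaccaggggtcaag
RT-qPCR antisense primer: AGTAACAGTGGTAGAGCCGa
FISH probe 9: aAGTAACAGTGGTAGAGCCG
The 29 FISH probes held 25 distinct sequences. One sequence was listed for probes 23, 24 and 25 and another for probes 21, 22 and 26, and the latter differs from the former by G13T, counted from 1 at the 5′ end of the probe and shown in capitals.
FISH probes 23, 24, 25: ctggacgtgggaGcacagag
FISH probes 21, 22, 26: ctggacgtgggaTcacagag
Apart from FISH probe 1, none of these oligos matched the promoter window, and their places within the 3 transcripts were not analysed here.

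All 3 transcripts lay on the plus strand of chromosome 16 (GRCh38). MSTRG.12733.1 spanned chr16:89711866-89717015 (5150 bases) and MSTRG.12733.2 spanned chr16:89711866-89717577 (5712 bases). They shared their start, and MSTRG.12733.2 ended 562 bases further downstream. MSTRG.12734.1 was a separate assembled locus of 675 bases at chr16:89717689-89718363, 111 bases past the end of MSTRG.12733.2. RefSeq places VPS9D1-AS1 at chr16:89711856-89718165, so both MSTRG.12733 transcripts lay wholly inside it. MSTRG.12734.1 had 477 of its 675 bases (70.7%) inside it and ended 198 bases beyond the RefSeq end. All 3 spans lay inside VPS9D1 (chr16:89707134-89720898), which RefSeq annotates on the minus strand. Whether the counting used strand is not stated, so reads of VPS9D1 and of FAISL cannot be told apart here.

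**Figure D1:**
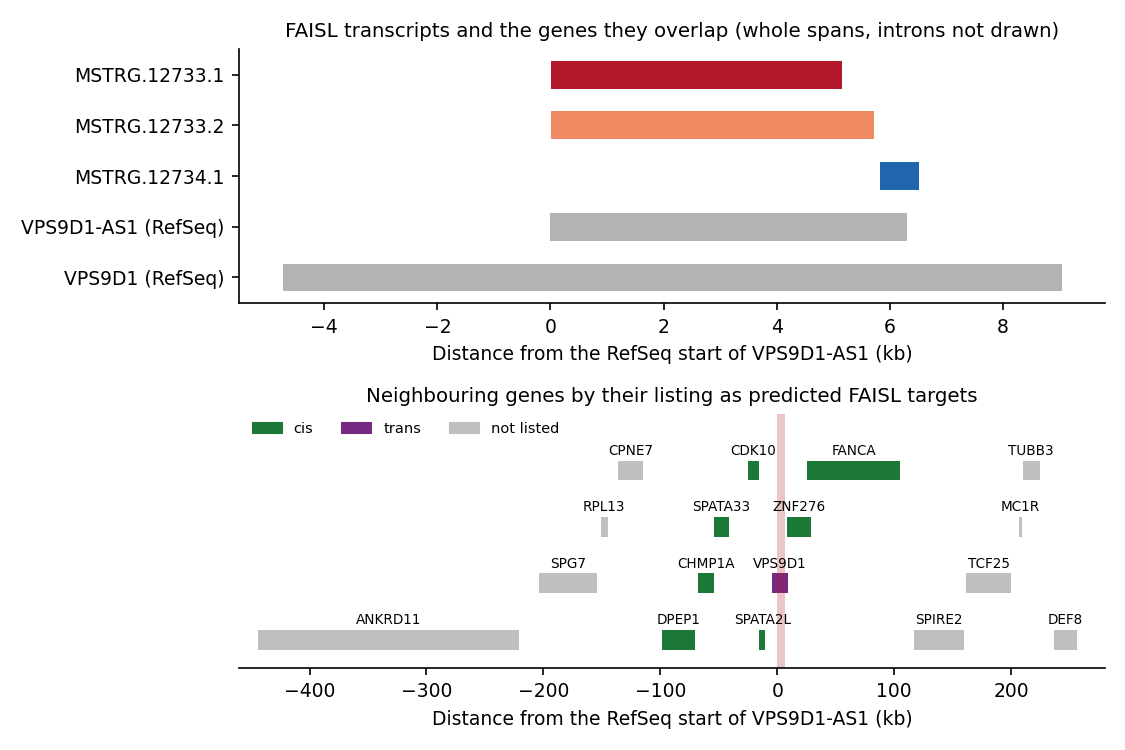
Upper panel: whole spans of the 3 FAISL transcripts and of the RefSeq genes VPS9D1-AS1 and VPS9D1, in kb from the RefSeq start of VPS9D1-AS1; introns are not drawn. MSTRG.12733.1 and MSTRG.12733.2 share a start, and MSTRG.12734.1 lies 111 bases past the end of MSTRG.12733.2. Lower panel: neighbouring genes as bars on the same scale (rows only separate names), green where listed as cis target of FAISL, purple as trans target, grey where not listed; the red band is VPS9D1-AS1, and the near edges of the 7 green genes all lie within 100 kb of FAISL.

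The tables give no exons, but FPKM (reads scaled by transcript length and library size) divides reads by transcript length, so reads per FPKM rank the lengths that the authors' tools used. In Input, 1 FPKM corresponded to 9.94 reads for MSTRG.12733.1, 6.98 for MSTRG.12733.2 and 5.83 for MSTRG.12734.1. The transcript with the middle span, MSTRG.12733.1, was thus the longest in sequence, 1.70 times as long as MSTRG.12734.1, while MSTRG.12733.2 was 1.2 times as long. Per kb of span, MSTRG.12734.1 gave 8.64 reads per FPKM, the sixth highest of 94 transcripts with at least 20 Input reads. On the same scale MSTRG.12733.1 gave 1.93, close to the median of 1.94, and MSTRG.12733.2 gave 1.22. The 10 highest transcripts outside FAISL, which were chosen after their values were seen, gave 7.83 to 9.46. If these 10 are assumed to be unspliced, which was not tested, the value of MSTRG.12733.1 corresponds to about 1051 to 1270 bases (20.4 to 24.7% of its span) and that of MSTRG.12733.2 to 738 to 891 bases (12.9 to 15.6%). By rapid amplification of cDNA ends in another breast cancer line, the paper reports a spliced FAISL transcript that is longer than either range. Whether the assembled transcripts are pieces of it was not tested.

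On the listed transcripts 2056854 Input reads, 109658 IgG reads and 48763 Flag-FAK reads were counted, of which 96.7 to 99.3% lay on ribosomal DNA and 7SK transcripts. Without these, 13782, 3669 and 1351 reads remained. A read of a given transcript was worth nearly the same FPKM in each library, the median ratio being 0.97 between Flag-FAK and IgG (26 transcripts with at least 5 reads in both), 1.04 between Flag-FAK and Input (34) and 1.08 between IgG and Input (64).

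FAISL was well represented in the starting RNA and was counted with few reads in both precipitates. MSTRG.12733.1 had 106 reads (10.7 FPKM, interval 8.73 to 12.9) in Input, 9 reads (0.952 FPKM, 0.435 to 1.81) in IgG and 13 reads (1.30 FPKM, 0.690 to 2.21) in Flag-FAK. MSTRG.12733.2 had 32 reads (4.58 FPKM, 3.14 to 6.47) in Input, 4 reads (0.590 FPKM, 0.161 to 1.51) in IgG and 7 reads (1.05 FPKM, 0.422 to 2.16) in Flag-FAK. MSTRG.12734.1 had 22 reads (3.77 FPKM, 2.36 to 5.71) in Input and none in either precipitate. Input was thus the highest library for each of the 3 transcripts, and the intervals of Flag-FAK and IgG overlapped for both MSTRG.12733 transcripts. The floor for a transcript without reads was set at 3 reads, or 0.514 FPKM at the Input value per read. The measured Input level of MSTRG.12734.1 was 7.33 times this floor in FPKM. The exact upper bound of its count of 0 was 3.69 reads, and the lower bound of its Input count was 13.8 reads. That difference does not hold as a share of the reads outside ribosomal DNA and 7SK. There MSTRG.12734.1 made up 0.160% of Input (0.10 to 0.242%), and its 0 of 1351 reads in Flag-FAK allow up to 0.222%, so a decrease was not detectable on that measure. Its 0 of 3669 reads in IgG allow up to 0.0818% at this floor. The exact upper bound in IgG was 0.1005%, just above the lower Input bound of 0.1001%, so these intervals overlapped. Summed over the 3 transcripts, FAISL had 160 reads (19.0 FPKM) in Input, 13 reads (1.54 FPKM) in IgG and 20 reads (2.34 FPKM) in Flag-FAK.

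**Figure D2:**
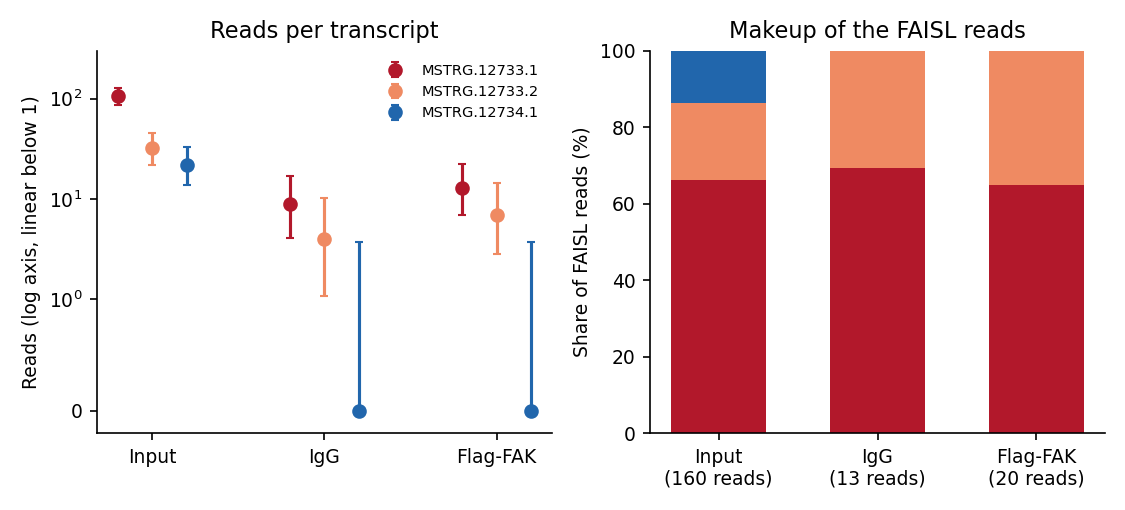
Left: reads of each FAISL transcript in the 3 libraries with exact 95% Poisson intervals, on a log axis that is linear below 1. Right: share of each transcript in the FAISL reads of a library (160, 13 and 20 reads), in the same colors. MSTRG.12733.1 holds about the same share in each library, and MSTRG.12734.1 has reads in Input only.

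In every library the largest share of the FAISL reads was on MSTRG.12733.1, though in IgG and Flag-FAK its interval overlapped that of MSTRG.12733.2. MSTRG.12733.1 took 66.2% of the FAISL reads in Input (106 of 160, Clopper-Pearson interval 58.4 to 73.5%), 69.2% in IgG (9 of 13, 38.6 to 90.9%) and 65% in Flag-FAK (13 of 20, 40.8 to 84.6%). MSTRG.12733.2 took 20% (14.1 to 27.0%) in Input, 30.8% (9.09 to 61.4%) in IgG and 35% (15.4 to 59.2%) in Flag-FAK. The intervals of all 3 libraries overlapped for both, so a change in the balance of the MSTRG.12733 forms was not detectable at this depth. In FPKM, which corrects for length, MSTRG.12733.1 held 56.1%, 61.7% and 55.3% of FAISL in Input, IgG and Flag-FAK. MSTRG.12734.1 held 13.8% of the FAISL reads in Input (22 of 160, 8.82 to 20.1%). Its 0 of 20 reads in Flag-FAK allow a share of up to 15%, and its 0 of 13 in IgG up to 23.1%, so either library alone could hold the Input share. Over both precipitates, 0 of 33 FAISL reads allow up to 9.09%, and the exact upper bound was 10.6%.

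The study compared Flag-FAK with IgG to find candidate lncRNAs carried by FAK, counting those enriched more than 2-fold, and FAISL was among the candidates. The ratio of FAISL in these libraries is therefore not independent evidence of binding. The paper's further evidence came from separate assays that were not analysed here. They included RNA immunoprecipitation with RT-qPCR in this and another line, immunoprecipitation after cross-linking, and pulldown of FAK with FAISL RNA. Immunoprecipitation with truncated forms of FAK and imaging of FAISL together with FAK were also among them. The Flag-FAK to IgG ratio in FPKM was 1.36 (0.538 to 3.61) for MSTRG.12733.1 and 1.78 (0.433 to 7.94) for MSTRG.12733.2. For MSTRG.12734.1, at 0 in both, no ratio can be given. Both intervals include 1. Of 135 transcripts with at least 0.5 FPKM in a precipitate, 14.1% had a ratio above 2 and 77.0% below 0.5 on the FPKM + 0.1 scale, with a median of 0.081. Of the 3 members, 2 reached 0.5 FPKM and neither passed a limit, so in these values neither reached the fold of 2 that the paper names. How the paper computed its fold is not given in the sources used here. On that scale MSTRG.12733.2 ranked 20th (1.66) and MSTRG.12733.1 23rd (1.33) of the 135, just below the transcripts above 2. Only 67 listed transcripts had any Flag-FAK read, so many of the 135 stood at 0 there, which lowers the median and lifts these ranks. Of 45 transcripts counted in IgG and in Flag-FAK, whose median ratio was 0.481, they ranked 9th and 12th.

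How FAISL stood between libraries depended on what the reads were set against. In FPKM the FAISL sum was 1.52-fold higher in Flag-FAK than in IgG (0.719 to 3.32), a log2 ratio of 0.57 with the pseudocount. It was 8.11-fold higher in Input than in Flag-FAK (5.08 to 13.6) and 12.3-fold higher in Input than in IgG (7.01 to 23.7). As a share of the reads outside ribosomal DNA and 7SK, FAISL made up 1.16% of Input (0.989 to 1.35%), 0.354% of IgG (0.189 to 0.605%) and 1.48% of Flag-FAK (0.907 to 2.28%). On that measure Flag-FAK was 4.18 times IgG (1.98 to 9.14) and 1.28 times Input (0.758 to 2.04), and IgG was 0.305 times Input (0.159 to 0.537). The FAISL share in Flag-FAK was close to its Input share, whereas that in IgG was below it. The reads left outside ribosomal DNA and 7SK were themselves uneven. MSTRG.21949.1 held 4276 Input reads and none in either precipitate, and MSTRG.19865.1 held 1086 IgG and 345 Flag-FAK reads and none in Input. Such transcripts weigh on these shares, and shares without them were not analysed. With 1351 reads left in Flag-FAK and 3669 in IgG, a higher recovery of FAISL and a lower recovery of other RNA cannot be told apart in such shares.

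A ranking that is the same under any scaling of a library sets the recovery of FAISL, as FPKM in a precipitate in percent of Input, against that of other loci. It covered the 79 loci outside ribosomal DNA and 7SK with at least 20 Input reads and was added after the data had been seen. The percentages compare FPKM, which is scaled within each library, so they are not the fraction of RNA precipitated. In Flag-FAK FAISL was recovered at 12.3% of its Input level (7.33 to 19.7%), the 8th highest of 79 loci, and between 4th and 17th at the bounds of its interval. The median locus was at 0%, as 46 of the 79 had no read in Flag-FAK. In IgG FAISL was recovered at 8.11% (4.23 to 14.3%), the 41st of the same 79 loci (35th to 46th at the bounds), close to the median of 8.29%, and 25 loci had no read. FAISL was thus among the better recovered loci of the Flag-FAK library and in the middle of the IgG library, though its recovery intervals in these libraries overlapped. Any locus with reads ranks ahead of those at 0, which were 46 in Flag-FAK and 25 in IgG. As FAISL was a candidate of this same comparison, its standing is not independent evidence of binding. Both recoveries share the Input library, and whether the ranks differ beyond the spread of repeated precipitations was not tested. Among the 18 loci with at least 100 Input reads, where few loci were at 0, FAISL ranked 4th in Flag-FAK and 9th in IgG.

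**Figure D3:**
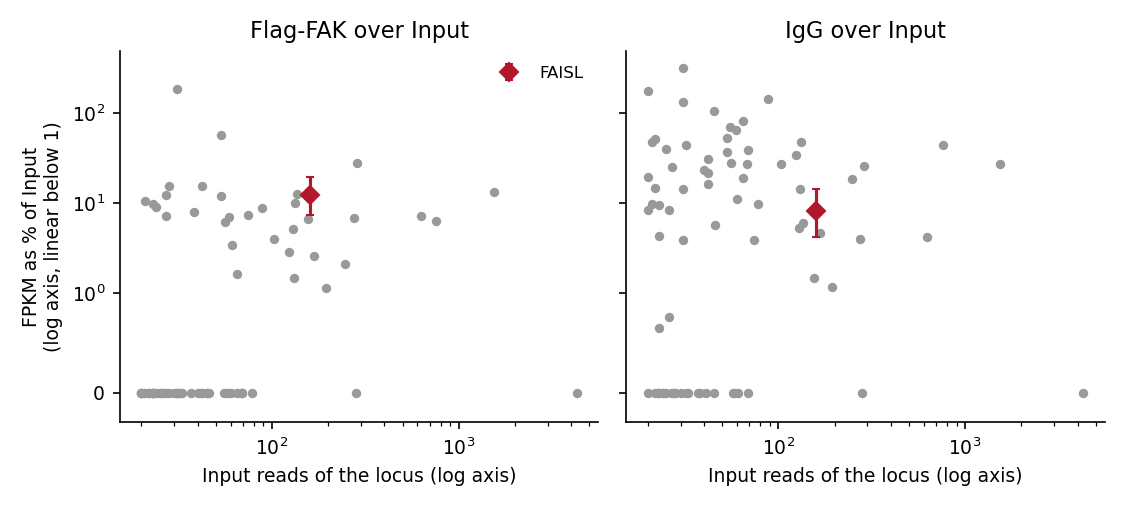
FPKM in Flag-FAK (left) and IgG (right) in percent of Input against the Input reads of each of 79 loci (both axes log, the vertical one linear below 1); grey points are other loci and the red diamond is FAISL with its exact 95% counting interval. FAISL lies at 12.3% in Flag-FAK, 8th highest, and at 8.11% in IgG, 41st highest.

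By abundance, FAISL ranked high among the listed loci of the starting RNA, and lncRNAs outside this list were not ranked. The FAISL sum joins 2 assembled loci, while other loci stayed single, and it may hold reads of VPS9D1. The FAISL sum ranked 13th of 292 loci in Input (12th to 14th at the bounds of its counting interval), with 258 loci detected. It ranked 80th in IgG (37th to 98th; 131 detected) and 20th in Flag-FAK (15th to 29th; 60 detected). Among single transcripts, MSTRG.12733.1, MSTRG.12733.2 and MSTRG.12734.1 ranked 24th, 72nd and 99th of 291 detected in Input. In IgG the MSTRG.12733 transcripts ranked 104th and 111th of 150 detected, and in Flag-FAK 33rd and 36th of 67.

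**Figure D4:**
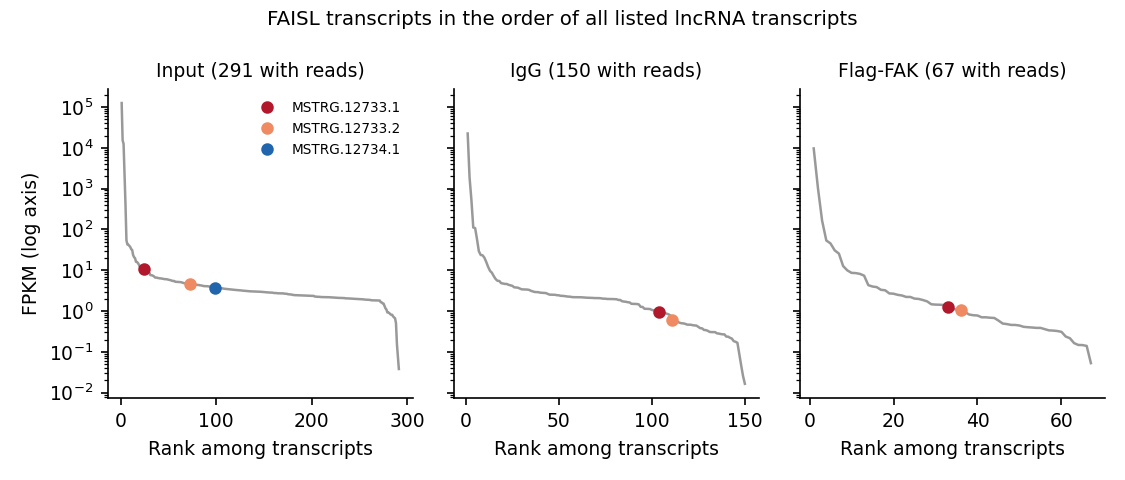
FPKM (log axis) of all transcripts with reads in each library, in falling order, with the FAISL transcripts marked. MSTRG.12733.1 is at rank 24 of 291 in Input, 104 of 150 in IgG and 33 of 67 in Flag-FAK, and MSTRG.12734.1 appears in Input only.

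The transcripts next to MSTRG.12733.1 in these orders had counting intervals that overlapped its own. In Input it stood at 10.7 FPKM between an unnamed transcript over the ribosomal protein pseudogene RPL7P9 (11.2 FPKM, 8.48 to 14.5) and one of the small nucleolar RNA host gene SNHG8 (9.24 FPKM, 6.63 to 12.5). In IgG the neighbors lay over the pseudogene HERC2P3 (0.979 FPKM, 0.202 to 2.86) and the lncRNA GIHCG (0.933 FPKM, 0.303 to 2.18). In Flag-FAK they were lnc-AGRP-1:4, which overlaps LOC100505942 and RIPOR1 (1.41 FPKM, 0.675 to 2.59), and a transcript of HOTAIRM1, a lncRNA of the HOXA cluster (1.14 FPKM, 0.418 to 2.48).

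Likeness to MSTRG.12733.1 over the 3 libraries was measured as the Euclidean distance in log2(FPKM + 0.1), for which the median over the other 333 transcripts was 5.38. The nearest was a transcript of PICSAR, a lncRNA first described in squamous cell carcinoma, at a distance of 1.11 and with 275, 11 and 18 reads in Input, IgG and Flag-FAK. It was followed by an unnamed transcript overlapping MCF2L (1.29; 19, 6 and 5 reads) and one of SNHG15, a small nucleolar RNA host gene (1.36; 146, 8 and 5 reads). A transcript of HOTAIRM1 (1.36; 23, 7 and 6 reads) and MSTRG.12733.2 itself (1.37) completed the 5 nearest. With 3 points per transcript and few reads in the precipitates, the distances describe these libraries only.

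The 3 deposited coding scores ordered the FAISL transcripts differently. CPC and CNCI give values below 0 to noncoding RNA, and the FAISL transcripts were below 0 in both, as were all 334 transcripts of the table. As only lncRNA transcripts were listed, a value below 0 does not set FAISL apart here. CPAT gives a coding probability between 0 and 1, and the limit used for it is not given in the sources used here. MSTRG.12733.1 had a CPC score of -0.27, higher than that of 94.9% of the 331 other transcripts and 18th of 334. Its CNCI score of -0.097 was higher than that of only 20.5% of them, and its CPAT probability of 0.0978 was higher than that of 78.2%. MSTRG.12733.2 had a CPC score of -0.94 (above 64.4% of the others) and a CNCI score of -0.021 (above 70.4%). Its CPAT probability of 0.346 was the 2nd highest of the table, exceeded only by the 0.36 of an unnamed X-linked transcript, MSTRG.32292.1. MSTRG.12734.1 lay between them in CPC and CNCI and was the lowest of the 3 in CPAT, with a CPC score of -0.80 (above 81.3%), a CNCI score of -0.038 (above 56.8%) and a CPAT probability of 0.0566 (above 68.9%). Each of the 3 lay above the table's median in CPC (-1.02) and CPAT (0.027), and MSTRG.12733.1 lay below the median in CNCI (-0.049). The upper quartile of CPAT was 0.0778, passed by MSTRG.12733.1 and MSTRG.12733.2.

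**Figure D5:**
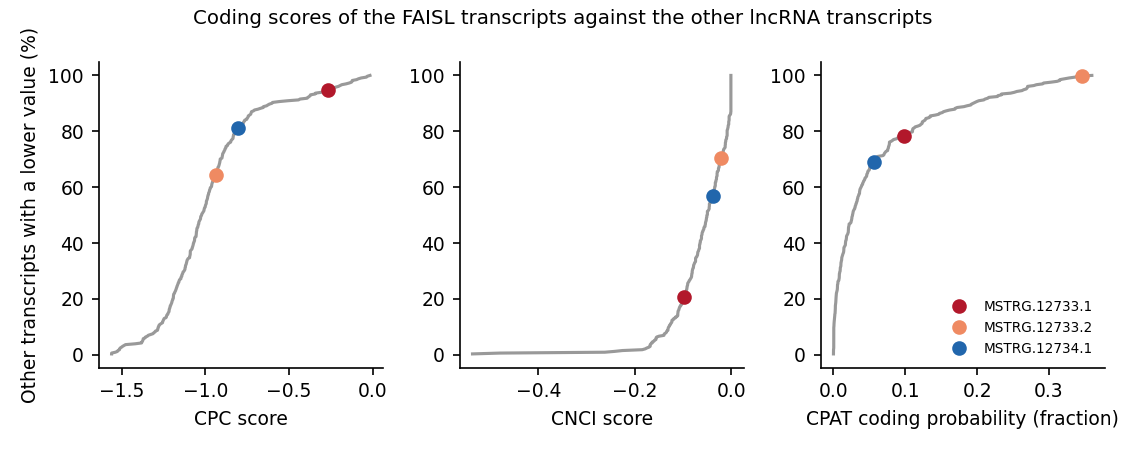
CPC score, CNCI score and CPAT coding probability (horizontal axes) against the percentage of the 331 other transcripts with a lower value (grey curves), with the FAISL transcripts as points. MSTRG.12733.1 is near the top in CPC and low in CNCI, and MSTRG.12733.2 lies near the top in CPAT at 0.346.

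The tables repeat each transcript once per predicted target gene. MSTRG.12733.1 had 13 targets, MSTRG.12733.2 18 and MSTRG.12734.1 9, against a median of 11 over 312 transcripts with any target. Together these were 22 genes, 7 predicted in cis and 15 in trans. How they were predicted is not given in the sources used here, and none was measured in these libraries.

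The cis targets were the near neighbors of the locus. All 3 transcripts listed ZNF276, a zinc finger gene 2.0 kb from FAISL, SPATA2L (10.2 kb), the cyclin-dependent kinase CDK10 (15.5 kb), the Fanconi anemia core complex gene FANCA (19.2 kb), SPATA33 (41.4 kb) and the ESCRT-III subunit CHMP1A (54.2 kb). The dipeptidase gene DPEP1 (70.3 kb) was listed for the MSTRG.12733 transcripts and not for MSTRG.12734.1. The far end of DPEP1 lay 98.6 kb from the start of the former and 104 kb from that of the latter. Of 20 neighbor genes on the list used, the 8 whose near edge lay within 100 kb were all targets and the 12 beyond were not. The only one of the 8 not listed in cis was VPS9D1, in which FAISL lies, and which was entered as a trans target of both MSTRG.12733 transcripts. Of these 8 genes, none was listed as target of any other transcript in the table.

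The trans targets separated MSTRG.12734.1 from the MSTRG.12733 transcripts, which overlapped in part. The MSTRG.12733 transcripts shared DTX2, a Deltex ubiquitin ligase of Notch signaling, IGFBP7, a secreted insulin-like growth factor binding protein, VGF, a neuropeptide precursor, CHADL and VPS9D1. MSTRG.12733.1 added PCNXL3 (now PCNX3) alone. MSTRG.12733.2 added 6 genes, which were BCAR1, the ephrin receptor EPHA1, the potassium channel KCNA5, the transporter ABCC6, GSE1 and BEGAIN. MSTRG.12734.1 added IGFN1, CCDC88B and CTD-3088G3.8, and shared no trans target with the other two. Of the 15 trans targets, 4 were listed for no other transcript (VPS9D1, DTX2, IGFBP7 and BCAR1), while VGF was listed for 7 others.

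BCAR1 encodes p130Cas, an adaptor phosphorylated by Src in complex with FAK, and its gene also lies on chromosome 16. It was the only one of 23 focal adhesion genes on the list used that was a FAISL target, and 6 of the 23 were targets of some transcript in the table. Neither PTK2 nor SRC was among the FAISL targets. In the deposited pathway annotation, 1 of the 22 FAISL targets (4.55%) carried the KEGG term for focal adhesion, against 57 of all 3948 targets (1.44%), so the FAISL share rests on BCAR1 alone. None of HNRNPK, CDK6, MYC and TGFB1, which have been described with VPS9D1-AS1 elsewhere, was a predicted target of FAISL.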

How the data were processed

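The study sequenced RNA of 3 libraries, Input, IgG and Flag-FAK, grouped by their labels. For each, the authors deposited FPKM and whole-number read counts of 334 lncRNA transcripts, on 7007 lines with 1 line per predicted target. The values on a transcript's lines did not differ, and 1 line was kept. Also deposited were CPC and CNCI scores and the CPAT probability, a fraction. The submitters' processing notes name StringTie and GRCh38, and versions, aligner, strand setting and target prediction are not given in the sources used here.

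FAISL values were summed over its 3 transcripts. Ratios used log2 of FPKM + 0.1. Intervals were exact, at the 95% level, Clopper-Pearson for shares and for ratios (scaled by FPKM per read) and Poisson for counts, and a count of 0 was taken to allow 3 reads. Counts may be rounded estimates: FPKM per read, relative to the same transcript where it had 5 or more reads, was 0.108 to 1.02 at 1 read (median 0.373, 16 comparisons) and 0.573 to 1.16 at 2 to 4 reads (median 0.921, 74 comparisons). Loci with such counts enter the ranks. Ranks count the higher values. The members, gene lists and rules were chosen with earlier results of these data known. Genes named are the 3 members, the transcripts directly above and below MSTRG.12733.1 in each library, the 5 nearest in likeness and all predicted targets. MSTRG.32292.1, MSTRG.21949.1 and MSTRG.19865.1 were named after their values were seen. Gene names, positions and the promoter window came from RefSeq (GRCh38.p14), which matched 21 of 22 targets, and oligo sequences from the study's supplement. The interval functions were tested on simulated data. The tools were Python 3.11.15 with pandas 2.3.3, scipy 1.17.1, matplotlib 3.10.9 and numpy 2.4.6.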

Additional observations from a re-analysis of the deposited data

How the results depend on the processing

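Of 41 alternative values, 27 stayed within the interval of the value reported, 12 moved out of it and 2 turned the direction. Rescaling each library to a total of 1000000 (TPM) changed the log2 ratio of Flag-FAK over Input from -2.97 to 0.79, and to 0.17 without the ribosomal DNA and 7SK transcripts. The corresponding values were 1.80 and 2.04 in place of 0.57 for Flag-FAK over IgG, and -1.0 and -1.87 in place of -3.54 for IgG over Input. Rescaling divides by totals that differ between libraries, so these moves follow from its construction. Other pseudocounts (0.01 and 1) and MSTRG.12733.1 alone left the 3 ratios within their intervals, as did reads plus 1 for Flag-FAK over IgG. The Input share of MSTRG.12733.1 was 66.2% by reads, 56.1% by FPKM and 76.8% within MSTRG.12733. The rank of FAISL in Flag-FAK was 20 and became 14 by reads, 13 among transcripts with at least 0.5 FPKM in Input, and 33 for MSTRG.12733.1 among single transcripts, and the last of these gave 24 in place of 13 in Input. Coding score percentiles with 1 transcript per locus, all counted among the 27, kept within binomial intervals. That outcome was nearly fixed in advance, as the scores are not read counts and the reduced set is part of the same set. The recovery rank in percent of the loci ranked was 10.1% in Flag-FAK and 22.2% with at least 100 Input reads, and 51.9% in IgG and 60.0% with at least 50, minimums chosen after seeing the data. No paired analysis was possible because the 3 conditions have a single library each, so none could be left out. The 13 and 20 FAISL reads in IgG and Flag-FAK limit every comparison between them.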
